A study of Mus musculus with 6 samples.

Results

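The aquaporins are channel proteins that let water, and in some members glycerol, cross cell membranes, and the vasopressin V2 receptor is the hormone receptor that sets their use in the collecting duct. The genes described are 9 aquaporins (Aqp1, Aqp2, Aqp3, Aqp4, Aqp5, Aqp6, Aqp7, Aqp8 and Aqp11) and Avpr2, which encodes the V2 receptor. They were taken by symbol and are 10 of 24346 genes in the deposited tables. RNA-seq was done on renal cortex from C57BL/6 mice. In 3 mice the HF/HC/HS/BA diet contained tofogliflozin, and 3 mice received the same diet without the drug. That feed is rich in fat and cholesterol with added bile salt, and the HS in its name marks a further component not described here. Both groups were fed for 8 weeks, so all 6 animals share the diet, which the labels call a NASH (steatohepatitis) model. The labels name no age, no sex and no dose. They count 3 mice a group without saying how the libraries relate to them, so p-values measure the spread between these libraries. Tofogliflozin inhibits SGLT2, the sodium-glucose transporter of the early proximal tubule, and inhibitors of this class leave glucose and water in the urine.

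In the kidney most filtered water is taken back along the proximal tubule and the descending thin limb through AQP1, which is always open. The rest is adjusted in the collecting duct. There vasopressin binds the V2 receptor on principal cells, Gs and adenylyl cyclase raise cyclic AMP, and protein kinase A phosphorylates AQP2, which moves to the apical membrane. Water then leaves the cell through AQP3 and AQP4 in the basolateral membrane. Cyclic AMP also raises transcription of Aqp2 over a longer time. The deposited values measure mRNA and say nothing of protein or its place in the cell.

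Values are FPKM, by definition fragments per kilobase of transcript scaled to the mapped fragments of the library, so levels can be compared between genes. Whether the libraries were also scaled to each other is not given in the sources used here. Of the 10 genes, 8 reached 1 FPKM in at least 3 libraries and were tested; Aqp5 and Aqp8 did not. None of the 8 passed limma's test at a Benjamini-Hochberg adjusted p of 0.05 over 12248 genes. The count called was 0, where 0.253% of all tested genes were called, 0.196% higher and 0.0572% lower. Without adjustment 4 of the 8 had a limma p under 0.05, with Aqp2, Aqp3 and Aqp4 higher and Aqp7 lower, where 13.1% of all tested genes did so (6.7% higher and 6.39% lower). The same 4 were the ones whose tofogliflozin and diet libraries did not overlap, which held for 18.5% of all tested genes (9.63% higher and 8.86% lower). Counts for the gene lists below are to be read beside these shares. Over all tested genes 49.7% had a change above 0. Fold changes below are differences on the log2(FPKM + 1) scale, tofogliflozin minus diet, which understates the change of low genes. In bulk RNA a change in the number of cells of a type and a change in RNA per cell cannot be told apart.

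Depth read from the spacing of the lowest values was about 7570000 to 9790000 fragments per library, with tofogliflozin replicate 1 the deepest. A gene at 1 FPKM thus had about 7.57 to 9.79 fragments for each kilobase of its transcript. Log2 values correlated between 0.980 and 0.990 for every pair of libraries. The proximal tubule genes Slc34a1, Lrp2 and Slc5a2, which encode a phosphate transporter, the endocytic receptor megalin and SGLT2, were at 2128 to 2292, 170 to 218 and 161 to 168 FPKM in the tofogliflozin libraries. In the diet libraries they were at 2286 to 2645, 191 to 228 and 150 to 221 FPKM. The urea transporter gene Slc14a2, known from the inner medullary collecting duct and thin limb, was at 5.64, 9.66 and 12.05 FPKM with tofogliflozin and at 4.90, 17.03 and 8.24 FPKM on the diet alone.

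**Figure D1:**
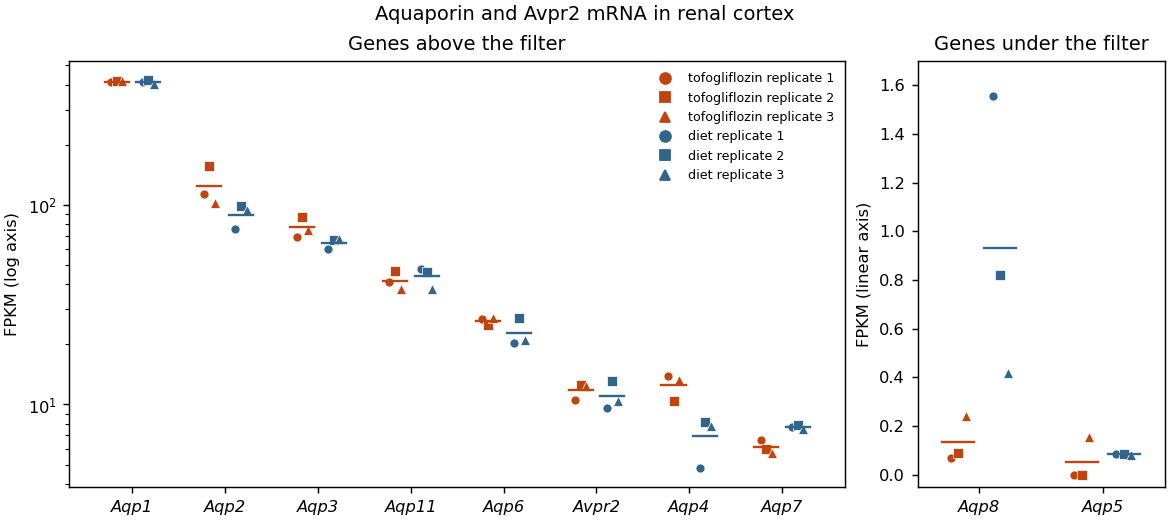
FPKM of each aquaporin gene and Avpr2 in every library, tofogliflozin to the left of diet; points are libraries, marked by replicate, and bars are group means. The left panel has a log axis and holds the 8 tested genes, and the right panel has a linear axis and holds Aqp8 and Aqp5; Aqp1 sits between 403.2 and 420.7 FPKM in all 6 libraries, and Aqp8 lies between 0.0706 and 0.243 FPKM in the tofogliflozin libraries and between 0.420 and 1.56 FPKM in the diet libraries.

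The genes spanned a wide range of levels. Aqp1 was the highest in both groups, followed by Aqp2, Aqp3, Aqp11 and Aqp6, with no overlap in FPKM between neighbours within either group. Below these the order differed by group. In the tofogliflozin libraries Aqp4 averaged 12.5 ± 1.86 and Avpr2 11.8 ± 1.09 FPKM (SD, n = 3), with overlapping ranges, and Aqp7 lay under both at 6.10 ± 0.483 FPKM. In the diet libraries Avpr2, at 11.04 ± 1.83 FPKM, lay above Aqp7 at 7.71 ± 0.194 FPKM, and Aqp4 at 6.94 ± 1.84 FPKM overlapped Aqp7. The ratio of Aqp4 to Aqp7 FPKM in the same library was 2.09, 1.74 and 2.34 with tofogliflozin, against 0.625, 1.03 and 1.04 on the diet alone. Since both genes were apart between the groups, in opposite directions, their ratio had to be apart too. A test of it adds nothing to that and is not reported. The other 4 ratios computed overlapped between the groups. Aqp2 to Aqp3 was 1.37 to 1.81 with tofogliflozin and 1.26 to 1.48 on the diet alone (two-sided exact permutation p = 0.3). Aqp3 to Aqp4 was 5.01 to 8.40 with tofogliflozin and 8.15 to 12.5 on the diet alone (exact permutation p = 0.2). Aqp2 to Aqp4 was 7.72 to 15.2 with tofogliflozin and 12.02 to 15.7 on the diet alone (exact permutation p = 0.3). Aqp2 to Avpr2 was 8.31 to 12.7 with tofogliflozin and 7.53 to 9.04 on the diet alone (exact permutation p = 0.2).

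Promoters of Aqp2 and Aqp3 are shown because these genes of the principal cell were both higher in every tofogliflozin library than in any diet library. The Aqp4 window was not used here. The sequences are the 250 bases before the RefSeq start on GRCm38.p6, 5′ to 3′ on the gene's strand. Aqp2 is chr15:99578806-99579055 on the plus strand and Aqp3 is chr4:41098184-41098433 on the minus strand. Capitals mark matches to the motifs searched.
Aqp2: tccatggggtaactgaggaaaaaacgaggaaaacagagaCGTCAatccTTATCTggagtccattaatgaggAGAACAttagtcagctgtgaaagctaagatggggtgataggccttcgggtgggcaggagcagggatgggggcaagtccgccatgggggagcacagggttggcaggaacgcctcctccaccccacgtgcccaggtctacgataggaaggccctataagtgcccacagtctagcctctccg
Aqp3: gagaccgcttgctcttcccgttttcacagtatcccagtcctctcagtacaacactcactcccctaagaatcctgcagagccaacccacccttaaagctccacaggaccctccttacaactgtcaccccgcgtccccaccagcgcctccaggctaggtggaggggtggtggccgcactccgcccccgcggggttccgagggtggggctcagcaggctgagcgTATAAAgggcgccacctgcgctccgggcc

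The motifs were searched on both strands in the 250 bases before the start of 32851 RefSeq promoters. They were the cyclic AMP response element TGACGTCA (in 1.55% of promoters) and its core TGACG (17.8%), which is part of it. The others were AP-1 as TGANTCA (6.75%), GATA as AGATAA (9.99%), the TATA box as TATAAA (12.4%), AGGTCA, bound by nuclear receptors (14%), a direct repeat of it with 1 base between (0.0335%), and AGAACA, bound by steroid receptors (16.1%). The Aqp2 window held the core TGACG on the minus strand at 211 to 207 bases before the start, AGATAA on the minus strand at 202 to 197 and AGAACA at 179 to 174. The Aqp3 window held TATAAA at 29 to 24 bases before the start and no match to the other motifs. Around the first of the RefSeq starts of Aqp7, AGATAA was at 132 to 127 bases and AGGTCA on the minus strand at 49 to 44 bases before the start. The window of the second Aqp7 start, which overlaps the first, held AGGTCA on the minus strand at 223 to 218 and at 101 to 96. It also held AGAACA at 173 to 168. The Aqp11 window held AGGTCA on the minus strand at 230 to 225. None of the motifs matched in the windows of Aqp1, Aqp5, Aqp6 and Aqp8. The Avpr2 window held AGAACA on the minus strand at 59 to 54 and at 50 to 45 bases before the start, and TATAAA on the minus strand at 45 to 40, which shares a base with its neighbour. Such matches are letters in a window and were not tested as binding sites.

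The family sits partly in clusters. In GENCODE's annotation of mm10 (GRCm38), Aqp2, Aqp5 and Aqp6 stand in a row on chromosome 15 (plus strand). Aqp2 spans 99579055 to 99584547, Aqp5 spans 99590782 to 99594829 and Aqp6 spans 99601400 to 99605477. Only 6234 bases separate Aqp2 from Aqp5, and 6570 bases separate Aqp5 from Aqp6. Aqp7, from 41033074 to 41048139, and Aqp3, from 41092722 to 41098183, lie on the minus strand of chromosome 4 with 44582 bases between them. Aqp1 spans 55336432 to 55348555 on chromosome 6 (plus strand). Aqp8, from 123462291 to 123468004 on the plus strand, and Aqp11, from 97724006 to 97738289 on the minus strand, are both on chromosome 7, far apart. Aqp4 is on the minus strand of chromosome 18. Avpr2 spans 73892102 to 73895502 on chromosome X (plus strand), and annotated spans of L1cam and Arhgap4 on the other strand cover it. The libraries were strand-specific, but whether counting used the strand is not given in the sources used here, so the Avpr2 value may hold reads of those genes, which were at 7.06 ± 0.705 and 2.29 ± 0.0796 FPKM with tofogliflozin and at 7.48 ± 1.72 and 2.52 ± 0.426 FPKM on the diet alone. FPKM are per gene and do not tell exons or transcripts apart.

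The first question was whether the receptor and the water channels of the principal cell differed with the drug. Avpr2 mRNA was at 10.5, 12.4 and 12.3 FPKM with tofogliflozin and at 9.60, 13.1 and 10.4 FPKM on the diet alone. The groups overlapped, and the highest library was diet replicate 2. The log2 change was 0.09 ± 0.12 (SE; 95% interval -0.19 to 0.37; limma adjusted p = 0.798).

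Aqp2, the vasopressin-regulated apical channel, was at 114, 157 and 103 FPKM in the tofogliflozin libraries and at 75.6, 98.6 and 94.2 FPKM in the diet libraries. Every tofogliflozin library was above every diet library, but the gap was narrow, between 103 FPKM in tofogliflozin replicate 3 and 98.6 FPKM in diet replicate 2. The means were 125 ± 29.0 FPKM with tofogliflozin and 89.5 ± 12.2 FPKM on the diet alone (SD, n = 3 each). On the log2 scale the change was 0.46 ± 0.17 (SE; 95% interval 0.08 to 0.84; limma adjusted p = 0.292). Tofogliflozin replicate 2 carried much of this, and without it the log2 change was 0.28.

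Aqp3, the basolateral channel that also passes glycerol, was at 69.4, 87.2 and 74.7 FPKM with tofogliflozin and at 60.2, 66.5 and 67.7 FPKM on the diet alone. The groups did not overlap, and as for Aqp2 the highest library was tofogliflozin replicate 2 and the lowest was diet replicate 1. The log2 change was 0.24 ± 0.10 (SE; 95% interval 0.02 to 0.47; limma adjusted p = 0.341), and it was 0.15 without tofogliflozin replicate 2.

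Aqp4, the other basolateral channel of principal cells, which in mice is also described in the proximal straight tubule, was at 13.8, 10.4 and 13.3 FPKM with tofogliflozin. In the diet libraries it was at 4.83, 8.17 and 7.84 FPKM. The groups were well apart, with tofogliflozin replicate 2 the lowest of its group. Aqp4 had the largest change of the 8 tested genes, a log2 change of 0.78 ± 0.18 (SE; 95% interval 0.36 to 1.21; limma adjusted p = 0.144), and a ratio of mean FPKM of 1.80. The log2 change ran from 0.58 without diet replicate 1 to 0.90 without tofogliflozin replicate 2 or diet replicate 2. An antisense transcript is annotated over part of Aqp4.

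**Figure D2:**
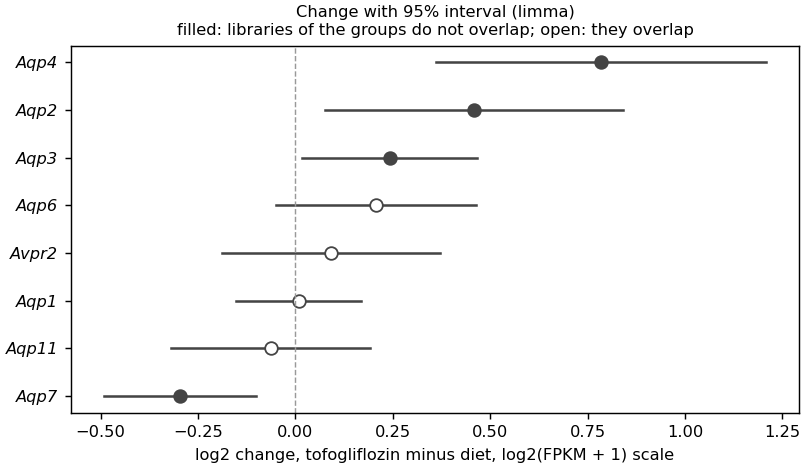
Log2 change (tofogliflozin minus diet) of the 8 tested genes with limma's 95% interval on the log2(FPKM + 1) scale; filled points are genes whose libraries do not overlap between groups. The intervals of Aqp4, Aqp2, Aqp3 and Aqp7 leave out 0 before adjustment for the number of genes tested, and no gene passed after it.

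Diet replicate 1 was the lowest of all 6 libraries for Aqp2, Aqp3, Aqp4, Aqp6 and Avpr2, and also for the mean of 24 principal cell marker genes other than the aquaporins and Avpr2. That mean was 4.70, 4.65 and 4.78 on the log2(FPKM + 1) scale with tofogliflozin, against 4.49, 4.64 and 4.63 on the diet alone, without overlap (difference 0.13; exact permutation test, two-sided p = 0.1, the smallest possible). Several of these markers are also made in the connecting tubule or the thick limb.

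When this mean was subtracted in each library, Aqp4 stayed apart, at -0.81, -1.15 and -0.94 with tofogliflozin and -1.94, -1.44 and -1.48 on the diet alone, on the log2 scale. The difference was 0.66 (exact permutation test, two-sided p = 0.1, the smallest possible). Aqp2 was then at 2.14, 2.65 and 1.91 with tofogliflozin and at 1.77, 1.999 and 1.95 on the diet alone. The groups overlapped, with a difference of 0.33 (exact permutation p = 0.3), which was 0.12 without tofogliflozin replicate 2. Aqp3 and Avpr2 also overlapped, with differences of 0.11 and -0.04 (exact permutation p = 0.7 each). For Aqp3 the difference was -0.0048 without tofogliflozin replicate 2.

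**Figure D3:**
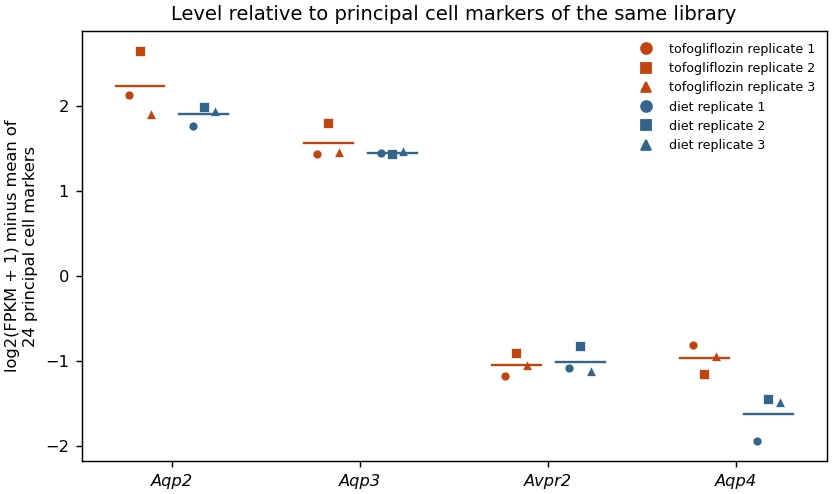
Level of Aqp2, Aqp3, Avpr2 and Aqp4 minus the mean of 24 principal cell markers in the same library, on the log2(FPKM + 1) scale, with tofogliflozin left of diet; points are libraries and bars are group means. Aqp4 is the gene whose groups stay apart, and tofogliflozin replicate 2 stands above the other libraries for Aqp2 and Aqp3.

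Of the 24 principal cell markers above the filter, none passed over all genes (0 called). The change was above 0 for 18 of them, with a median of 0.12, where 49.7% of all tested genes were above 0 and their median was -0.00075. The markers' median was 0.058 without tofogliflozin replicate 3 and 0.18 without tofogliflozin replicate 2. The libraries did not overlap for 8 higher and 1 lower gene, against 9.63% and 8.86% of all tested genes. The 4 of smallest p were the epithelial sodium channel subunits Scnn1g, Scnn1a and Scnn1b and the ammonia channel gene Rhcg. Scnn1g was at 17.7 ± 0.179 FPKM with tofogliflozin and 13.04 ± 0.388 FPKM on the diet alone (limma adjusted p = 0.0644). Scnn1a was at 61.3 ± 4.23 FPKM with tofogliflozin and 45.9 ± 2.14 FPKM on the diet alone, and Rhcg at 77.2 ± 4.56 FPKM with tofogliflozin and 63.1 ± 4.05 FPKM on the diet alone. Summed over all 26 markers, the level was 1289 to 1384 FPKM with tofogliflozin and 1159 to 1323 FPKM on the diet alone, and no marker was listed at 0 in all libraries. The part of cell number in the values of Aqp2, Aqp3, Aqp4 and Avpr2 was not tested.

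Aqp6, an intracellular anion-permeable channel of acid-secreting intercalated cells, was at 26.9, 25.1 and 27.1 FPKM with tofogliflozin and at 20.4, 27.2 and 21.0 FPKM on the diet alone. Diet replicate 2 was the highest of all 6 libraries, so the groups overlapped. The log2 change was 0.21 ± 0.11 (SE; 95% interval -0.05 to 0.46; limma adjusted p = 0.481), and it was 0.13 without diet replicate 1 and 0.33 without diet replicate 2. Among intercalated cell markers the change was above 0 for 15 of 15 tested genes, with a median of 0.19, and the summed level was 426 to 522 FPKM with tofogliflozin against 391 to 408 FPKM on the diet alone. None passed over all genes (0 called). Before adjustment 5 were higher with a limma p below 0.05, against 6.7% of all tested genes. The libraries did not overlap for 6 higher genes, against 9.63% of all tested genes. The V-ATPase subunit genes Atp6v1c2, at 21.5 ± 1.298 FPKM with tofogliflozin and 16.3 ± 1.31 FPKM on the diet alone, and Atp6v1g3, at 27.3 ± 3.74 FPKM with tofogliflozin and 19.9 ± 2.79 FPKM on the diet alone, had the smallest p of the list. Atp6v0d2 and Atp6v1b1 followed, and the limma adjusted p of the 4 ran from 0.129 to 0.270.

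Aqp5, better known from glands and lung, lies between Aqp2 and Aqp6 in the cluster and was nearly silent. It was listed at 0, 0 and 0.154 FPKM with tofogliflozin and at 0.0869, 0.0866 and 0.0798 FPKM on the diet alone. Corrected for depth these values are whole multiples of the lowest, within 0.00576%, and correspond to 0, 0 and 2 fragments with tofogliflozin and 1, 1 and 1 on the diet alone. The neighbours on either side were at 103 to 157 FPKM (Aqp2) and 25.1 to 27.1 FPKM (Aqp6) in the tofogliflozin libraries, and at 75.6 to 98.6 and 20.4 to 27.2 FPKM in the diet libraries.

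The second group is the channels of the proximal tubule. Aqp1, the constitutive water channel, was at 414.8, 415.7 and 415.7 FPKM with tofogliflozin and at 415.1, 420.7 and 403.2 FPKM on the diet alone. The highest and lowest libraries were both diet libraries. Between the groups the log2 change was 0.01 ± 0.07 (SE; 95% interval -0.15 to 0.17; limma adjusted p = 0.972). The highest library was 1.04 times the lowest, and of 912 genes that averaged at least 100 FPKM, 0 had a smaller ratio; the median ratio was 1.26. This ratio was looked up after the values were seen.

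Aqp1 is also made by red cells and by the endothelium of vasa recta. Endothelial markers had a median change of 0.04, with 10 of 16 above 0 and summed levels of 282 to 341 FPKM with tofogliflozin and 309 to 327 FPKM on the diet alone. Red cell markers summed to 113, 117 and 55.1 FPKM with tofogliflozin and 44.1, 75.2 and 155 FPKM on the diet alone. This sum includes Slc4a1, which was also read as an intercalated cell marker. The part of red cell or endothelial RNA in the Aqp1 value was not tested.

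Aqp11, a channel of the endoplasmic reticulum whose loss gives polycystic kidneys in mice, was at 41.2, 46.4 and 37.8 FPKM with tofogliflozin and at 47.7, 45.9 and 37.8 FPKM on the diet alone. The groups overlapped. This gave a log2 change of -0.06 ± 0.11 (SE; 95% interval -0.32 to 0.19; limma adjusted p = 0.853).

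Aqp7, a glycerol and water channel of the brush border in the straight proximal tubule, was at 6.63, 5.97 and 5.69 FPKM with tofogliflozin and at 7.72, 7.90 and 7.51 FPKM on the diet alone. All tofogliflozin libraries were below all diet libraries, and the diet libraries were close together. The log2 change was -0.30 ± 0.08 (SE; 95% interval -0.49 to -0.10; limma adjusted p = 0.206), and it ran from -0.35 to -0.26 when a library was left out. Its chromosomal neighbour Aqp3 had libraries apart in the other direction.

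Some markers of the straight proximal tubule were picked, after their values were seen, from the 27 proximal tubule markers below. They were Slc7a13, an amino acid transporter gene, and Slc22a7, an organic anion transporter gene, and do not stand for the whole segment. Slc7a13 was at 399, 471 and 420 FPKM with tofogliflozin and at 527, 496 and 523 FPKM on the diet alone. Slc22a7 was at 8.53, 32.4 and 7.78 FPKM with tofogliflozin and at 77.1, 23.3 and 65.3 FPKM on the diet alone. Slc7a13 did not overlap between the groups and Slc22a7 did, and the part of this segment's RNA in the Aqp7 value was not tested. Over 27 proximal tubule markers 12 had a change above 0 and the median was -0.07. Before adjustment 5 were higher and 6 lower with a limma p below 0.05. Between the groups 4 higher and 4 lower genes did not overlap, against 9.63% and 8.86% of all tested genes. The 4 of smallest p lay above 0 and did not pass, and they were Slc22a8, Pck1, Slc13a1 and Slc5a12 (limma adjusted p from 0.0883 to 0.199). Slc22a8, an organic anion transporter gene, was at 254 ± 16.8 FPKM with tofogliflozin and 169.6 ± 26.8 FPKM on the diet alone, and Pck1, a gene of glucose synthesis, at 3153 ± 874 FPKM with tofogliflozin and 1784 ± 252 FPKM on the diet alone.

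Since AQP7 and AQP3 pass glycerol, genes that make or use glycerol were also read. Of 17 tested, none passed over all genes (0 called; 3 genes higher and 1 gene lower with a limma p below 0.05 before adjustment), with a median change of 0.04. Angptl4, a secreted inhibitor of lipoprotein lipase, was at 107 ± 33.9 FPKM with tofogliflozin and 42.4 ± 8.09 FPKM on the diet alone (limma adjusted p = 0.0730). Agpat9, which acylates glycerol-3-phosphate, was at 8.93 ± 0.711 FPKM with tofogliflozin and 5.60 ± 0.880 FPKM on the diet alone, and Gpd2, the mitochondrial glycerol-3-phosphate dehydrogenase, at 9.72 ± 1.496 FPKM with tofogliflozin and 14.3 ± 2.53 FPKM on the diet alone. Glycerol kinase, listed as Gyk, was at 189 to 230 FPKM with tofogliflozin and 188 to 208 FPKM on the diet alone. AQP7 is also abundant in fat. Adipoq was at 0, 0.112 and 0 FPKM with tofogliflozin and at 0.455, 0 and 0 FPKM on the diet alone, and Lep was listed at 0 in all libraries. Fabp4, also made by endothelium, held most of the summed level of the fat markers. That sum was 60.8 to 74.6 FPKM with tofogliflozin and 62.1 to 81.6 FPKM on the diet alone. In diet replicate 1 the sum was 81.6 FPKM and Fabp4 was at 71.0 FPKM, the widest gap of any library. The part of fat RNA in the Aqp7 value was not tested.

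Aqp8, a water and ammonia channel found inside proximal tubule and collecting duct cells, was low in all libraries. It was at 0.0706, 0.0901 and 0.243 FPKM with tofogliflozin and at 1.56, 0.821 and 0.420 FPKM on the diet alone. Every tofogliflozin library lay below every diet library. The values are whole multiples of the lowest after correction for depth, within 0.124%, and correspond to 1, 1 and 3 fragments with tofogliflozin and 17, 9 and 5 fragments on the diet alone. A transcript of about 1446 bases would give 1 fragment at the lowest step, and annotated Aqp8 transcripts run from 1159 to 1487 bases. Only diet replicate 1 exceeded 1 FPKM, so Aqp8 stayed under the filter. An exact permutation test on log2(FPKM + 1) gave a two-sided p = 0.1, the smallest that 3 against 3 allows. When genes were not filtered, limma gave a log2 change of -0.73 and an adjusted p of 0.306. The sums of 5 fragments with tofogliflozin and 31 on the diet alone are too few for a firm ratio.

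The aquaporin genes outside the set were close to 0. Aqp9, a liver glycerol channel, was at most 0.0946 FPKM with tofogliflozin and 0.0956 FPKM on the diet alone. Mip, the lens channel, was at most 0.0536 FPKM with tofogliflozin and 0.0602 FPKM on the diet alone, and Aqp12, a pancreas gene, was listed at 0 in all libraries.

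The arm downstream of the V2 receptor was read in 32 tested genes of Gs, adenylyl cyclases, protein kinase A, its anchors, phosphodiesterases and CREB factors. None passed over all genes (0 called), 20 had a change above 0, and the median was 0.05. Before adjustment 3 genes were higher and 1 gene was lower with a limma p below 0.05. The libraries did not overlap for 5 higher genes and 1 lower gene, against 9.63% and 8.86% of all tested genes. Akap7 encodes an anchor of protein kinase A that has been tied to AQP2 vesicles, and its mRNA was at 5.53 ± 0.171 FPKM with tofogliflozin and 3.56 ± 0.267 FPKM on the diet alone (log2 change 0.52; limma adjusted p = 0.0704). Adcy6, the main adenylyl cyclase of vasopressin action in the collecting duct, was at 38.7 ± 3.85 FPKM with tofogliflozin and 31.5 ± 3.93 FPKM on the diet alone, with overlapping libraries (limma adjusted p = 0.3005). Prkar1b, a regulatory subunit of protein kinase A, was at 2.002 ± 0.205 FPKM with tofogliflozin and 1.36 ± 0.320 FPKM on the diet alone. Creb3l1, a membrane-bound CREB relative, was at 1.05 ± 0.186 FPKM with tofogliflozin and 2.02 ± 0.700 FPKM on the diet alone.

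Of 37 tested genes that move or degrade AQP2, 20 had a change above 0 and the median was 0.02, with none called (0; 3 genes higher and 2 genes lower with a limma p below 0.05 before adjustment). Vamp2, the vesicle SNARE of AQP2 fusion, was at 50.7 ± 2.26 FPKM with tofogliflozin and 41.3 ± 3.49 FPKM on the diet alone. Mal, an apical membrane protein reported to slow AQP2 uptake, was at 78.6 ± 3.97 FPKM with tofogliflozin and 68.6 ± 3.803 FPKM on the diet alone, and Anxa2, a membrane-binding annexin, at 37.3 ± 1.41 FPKM with tofogliflozin and 31.4 ± 0.315 FPKM on the diet alone. Sipa1l1, a Rap1 regulator reported to bind AQP2, was at 15.7 ± 1.78 FPKM with tofogliflozin and 20.1 ± 1.91 FPKM on the diet alone. Each of the 4, named for their small p, had no overlap between groups, with limma adjusted p from 0.196 to 0.319. Over the 37 genes, 5 higher and 2 lower did not overlap, against 9.63% and 8.86% of all tested genes.

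Among 21 tested transcription factors named for Aqp2 or for principal cells, 11 had a change above 0 and the median was 0.01 (0 called; 1 gene higher and 3 genes lower with a limma p below 0.05 before adjustment). Hoxd8, a homeobox gene of the distal nephron, was at 66.3 ± 2.17 FPKM with tofogliflozin and 50.1 ± 2.15 FPKM on the diet alone (log2 change 0.40; limma adjusted p = 0.0682). Fos and Egr1, immediate early genes, were at 1.71 ± 0.901 and 5.92 ± 2.73 FPKM with tofogliflozin and at 3.26 ± 0.640 and 9.24 ± 0.322 FPKM on the diet alone. Nfatc1, a calcineurin-dependent factor, was at 2.95 ± 0.201 FPKM with tofogliflozin and 3.97 ± 0.227 FPKM on the diet alone. Nfat5, the factor of hypertonic stress that also binds the Aqp2 promoter, was at 11.5, 10.1 and 11.9 FPKM with tofogliflozin and at 9.68, 14.2 and 9.68 FPKM on the diet alone; it was looked up after the values were seen.

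Of 16 tested genes of adaptation to hypertonic medium, 8 had a change above 0 and the median was 0.01, with 0 called (1 gene higher and 2 genes lower with a limma p below 0.05 before adjustment). Sgk1, a kinase induced by aldosterone and by cell shrinkage, was at 66.1 ± 10.3 FPKM with tofogliflozin and 28.7 ± 6.87 FPKM on the diet alone (log2 change 1.19; limma adjusted p = 0.0541). Over the other settings it was called after upper-quartile scaling and without diet replicate 2. The heat shock protein gene Hspa4l, an NFAT5 target, was at 11.6 ± 1.01 FPKM with tofogliflozin and 13.9 ± 0.367 FPKM on the diet alone, and Pnpla6, a phospholipase gene that makes the osmolyte glycerophosphocholine, at 17.2 ± 1.83 FPKM with tofogliflozin and 20.5 ± 0.795 FPKM on the diet alone. Hspb1 overlapped between the groups. Thin limb and medulla markers had a median change of 0.03, with 6 of 12 above 0. Leaving out diet replicate 1 turned this median to -0.10, leaving out tofogliflozin replicate 3 turned it to -0.0090, and leaving out diet replicate 2 gave 0.17. Of these Cldn10, a tight junction gene, was at 178.6 ± 12.9 FPKM with tofogliflozin and 216 ± 1.78 FPKM on the diet alone. Fxyd5 overlapped between the groups.

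Receptors that counter or add to vasopressin were read in 15 tested genes. Of these 9 had a change above 0, the median was 0.02 and none was called (0). Before adjustment 3 genes were higher with a limma p below 0.05. The libraries did not overlap for 4 higher genes, against 9.63% of all tested genes. Avpr1a, the V1a receptor gene, was at 2.17, 2.53 and 3.16 FPKM with tofogliflozin and at 1.66, 2.79 and 3.58 FPKM on the diet alone. Avp and Avpr1b were listed at 0 in all libraries. Ednrb, the endothelin B receptor, which inhibits water uptake in the collecting duct, was at 6.61 ± 0.191 FPKM with tofogliflozin and 5.08 ± 0.841 FPKM on the diet alone. Adra2b, an adrenergic receptor, was at 82.1 ± 8.98 FPKM with tofogliflozin and 68.2 ± 3.17 FPKM on the diet alone, and Lgr4, an R-spondin receptor, at 56.3 ± 5.22 FPKM with tofogliflozin and 46.9 ± 0.628 FPKM on the diet alone. P2ry2, a nucleotide receptor that dampens vasopressin action, was at 2.07 ± 0.170 FPKM with tofogliflozin and 1.45 ± 0.586 FPKM on the diet alone, with overlapping libraries. The limma adjusted p of these 4 ran from 0.239 to 0.442.

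**Figure D4:**
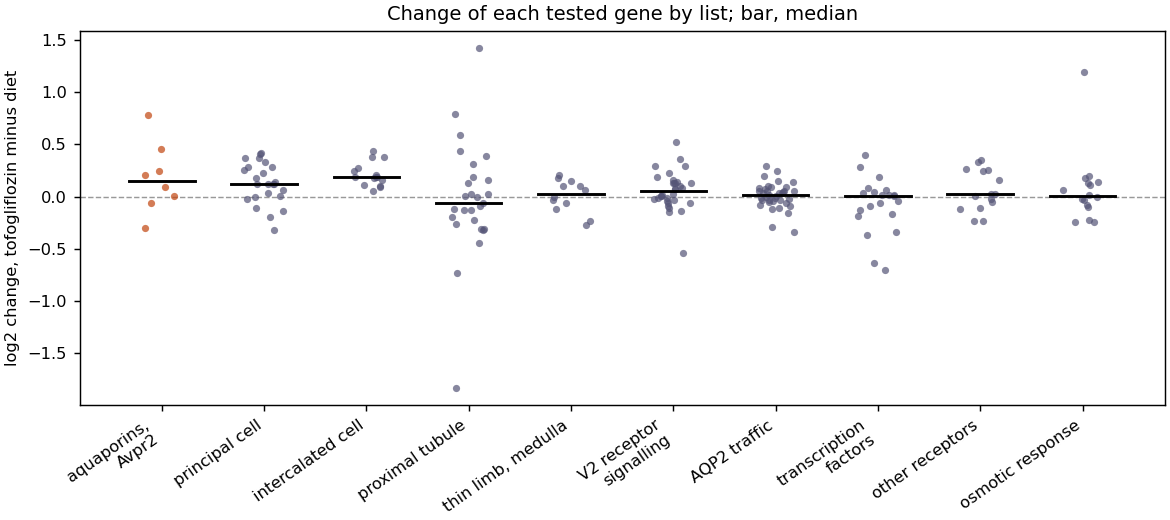
Log2 change (tofogliflozin minus diet) of each tested gene, by list, with the median as a bar and 0 as a dashed line; points are genes, spread sideways for clarity. Principal and intercalated cell markers lie mostly above 0, with medians of 0.12 and 0.19, while the lists of V2 receptor signalling, AQP2 traffic and transcription factors have medians of 0.05, 0.02 and 0.01.

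The genes whose pattern over the 6 libraries was closest to that of Aqp2, by root mean square difference of centred log2 values among 8668 other genes averaging at least 5 FPKM, were Cd164l2 (0.127), Parp2 (0.142), Lhx1os (0.144), Gnl3 (0.160) and Sult1a1 (0.162). Aqp3 came at place 13 (0.172), while Avpr2 was at place 575 (0.264) and Aqp4 at place 5422 (0.355). Around Avpr2 the closest were B4galnt1, Adra1a, Sh3bp4, Mum1 and Capg, with differences from 0.0548 to 0.0579, and Aqp6 was the nearest of the family, at place 319 (0.112). With 6 libraries such closeness is a description, and genes that vary little lie close to each other.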

How the data were processed

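The authors deposited 1 table of FPKM per library, with 24346 gene symbols. Per the labels' protocols, RNA came from a spin-column kit and the library kit was a stranded one for mRNA. Per the submitters' processing notes, the build was mm10 and the tools included Cuffdiff 2.2.1, TopHat2 2.1.1 and Bowtie2 2.2.8, and also SAMtools 0.1.18. Not given in the sources used here are the annotation, the strand setting and any scaling between libraries. The files hold no counts, so relative depth was read from the steps of genes under 0.3 FPKM, and total depth from the lengths of 451 such genes with 1 annotated transcript, taking the lowest step as 1 fragment. Depths are therefore approximate, and they would hold any scaling between libraries.

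The 12248 genes that reached 1 FPKM in 3 or more of the 6 libraries were put on the log2(FPKM + 1) scale. The comparison used R 4.3.3 and limma 3.58.1 (a moderated test, mean-variance trend, two-sided, Benjamini-Hochberg adjustment over all tested genes, threshold 0.05). The code of the fit was run on simulated data with independent noise in each gene and planted changes. That run does not show how the fit behaves where a library deviates from its group. Levels relative to markers, and ratios of 2 genes, used exact permutation tests, 2-sided over 20 splits. The test of the ratio of Aqp4 to Aqp7 is not reported. The family and its lists (16 lists, 313 of 315 entries found in the files, 4 of them by another symbol) were chosen with earlier results of these data known. Named are all genes of the family and, in each list, genes called over all genes or else up to 4 of smallest p. Also named are the 5 genes closest to Aqp2 and to Avpr2. Some others are marked as chosen after their values were seen. Further genes, such as Slc34a1, Lrp2, Slc5a2, Slc14a2, Gyk, Adipoq, Lep and Avpr1a, are named outside this rule without such a mark. Some genes that this rule would name are not reported here. Promoters are RefSeq's on GRCm38.p6 and were read for 9 of the 10 genes, without Aqp4. Alternatives were a pseudocount of 0.1, no filter, a filter at 5 FPKM, upper-quartile scaling, quantile normalization, a robust trend, no trend, the replicate number as a block, and each library left out. Figures were drawn with matplotlib 3.10.9.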

Additional observations from a re-analysis of the deposited data

How the results depend on the processing

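In all 14 other settings 0 of the tested aquaporin genes and Avpr2 were called. The lowest limma adjusted p among them was 0.0883, for Aqp4 without diet replicate 2, where the range for Aqp4 over the settings was 0.0883 to 0.456. Aqp2, Aqp3, Aqp4, Aqp6, Aqp7 and Avpr2 kept their direction in each setting. The log2 change of Aqp1 turned to -0.013 under quantile normalization and to -0.0086 without diet replicate 3 (range with libraries left out -0.0086 to 0.022). That of Aqp11 turned to 0.0049 without tofogliflozin replicate 3 and to 0.00087 without diet replicate 1 (range -0.16 to 0.0049). With libraries left out the change ran from 0.28 to 0.58 for Aqp2, 0.15 to 0.31 for Aqp3, 0.58 to 0.90 for Aqp4, 0.13 to 0.33 for Aqp6 and 0.0046 to 0.21 for Avpr2. The count of called genes, 31 of all tested, was 1 with no filter, 20 with a filter at 5 FPKM, 47 after upper-quartile scaling and 61 with a robust trend, and 2 (without tofogliflozin replicate 3) to 66 (without diet replicate 2) with libraries left out. Of the list genes 0 were called in the reported fit, 1 (Sgk1) after upper-quartile scaling, 2 (Alb and Scnn1g) with a robust trend and 0 to 3 with libraries left out, the 3 being Agpat9, Sgk1 and Slc22a8 without diet replicate 2. The cause was not tested. With libraries left out, the median change of a list took both signs for AQP2 traffic (-0.0041 to 0.035), transcription factors (-0.073 to 0.026), other receptors (-0.031 to 0.095), osmotic response (-0.075 to 0.12) and thin limb and medulla (-0.10 to 0.17). With the replicate number as a block (replicate block), 26 genes and 0 of the family were called. Deviations of same-numbered libraries correlated at -0.0549, -0.0623 and 0.0514, and those of differently numbered ones ran from -0.138 to 0.188. With 3 libraries a group these values cannot show whether the numbers pair the samples. A transcript of 1 kb at 1 FPKM rests on fewer than 10 fragments, which limits Aqp8 and Aqp5.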

Other observations

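Some protein-coding genes within 100 kb of the Aqp3 and Aqp7 pair were chosen after their values were seen. Nol6, 16244 bases from Aqp3, was at 9.81 ± 0.862 FPKM with tofogliflozin and 10.2 ± 0.870 FPKM on the diet alone. Nfx1, 7081 bases from Aqp7, was at 16.8 ± 1.18 FPKM with tofogliflozin and 16.0 ± 1.12 FPKM on the diet alone. Ube2r2 was at 46.6 ± 1.46 FPKM with tofogliflozin and 44.1 ± 4.98 FPKM on the diet alone. These 3 genes overlapped between the groups, with limma adjusted p from 0.757 to 0.863. In the Aqp2 cluster, Racgap1, a gene of cell division, was at 0.818 ± 0.269 FPKM with tofogliflozin and 0.722 ± 0.450 FPKM on the diet alone and Faim2 at 0.0136 ± 0.0236 FPKM with tofogliflozin and 0.0176 ± 0.0152 FPKM on the diet alone.

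The change of macrophage markers was below 0 for 12 of 12 tested genes (median -0.45; 0 called, 2 at an unadjusted limma p under 0.05). Csf1r was at 13.4 ± 2.24 FPKM with tofogliflozin and 18.4 ± 1.504 FPKM on the diet alone. The median was -0.12 without diet replicate 2. Among markers of other tissues, the albumin gene Alb averaged 7.31 ± 0.963 FPKM with tofogliflozin and 3.90 ± 0.484 FPKM on the diet alone, with a limma adjusted p of 0.0541. In that list 4 of 10 markers, among them the muscle genes Acta1 and Ckm, were listed at 0 in all libraries.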
